A study of Mus musculus with 6 samples.

Results

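The genes of renal phosphate transport and vitamin D turnover were described as 1 group in the RNA-seq counts of this series. The 10 genes were picked by name, with no measured value in the rule, from the 46095 genes of the count table: the phosphate importers Slc34a1, Slc34a3, Slc20a1 and Slc20a2, the exporter Xpr1, the scaffold Pdzk1, the FGF23 co-receptor Kl, the vitamin D enzymes Cyp27b1 and Cyp24a1, and the vitamin D receptor Vdr. This choice was made with earlier results of these data known. All 10 were found, and all 10 were among the 14611 genes that passed the filter on low counts. The samples were PTECs, which are primary renal tubular epithelial cells, freshly isolated from mouse kidneys at 10 weeks of age, and gave 6 libraries, of which 3 bore the label VHL-KO (replicates 1, 2 and 4) and 3 the label VHL-KO;SETD2-KO (replicates 2, 3 and 4). In both groups Ksp-Cre, which is driven by the Cadherin-16 promoter and acts in tubular epithelium, was used to delete the floxed VHL gene, and in the second group also floxed Setd2, which encodes the enzyme that trimethylates lysine 36 of histone H3, all on a C57 background. By design every library therefore came from mice with the VHL deletion, and neither wild-type libraries nor libraries with the Setd2 deletion alone were analysed here. The study isolated tubule cells to raise the share of cells positive for Cre. What share of the cells, and of which tubule segments, carried the deletions in these libraries was not tested. The comparison asks how the transcriptome differs once Setd2 is lost where VHL is already missing. The cells came from 3 mice per group, and no label ties a library to a mouse or says whether mice were pooled.

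The kidney returns most filtered phosphate to the blood in the proximal tubule, where sodium-coupled transporters of the brush border carry it into the cell. Parathyroid hormone and FGF23, the latter acting with klotho, take these transporters off the membrane, and PDZ proteins beneath the membrane hold them in place. The same cells are the main renal site of CYP27B1, which makes active vitamin D from its circulating precursor, and CYP24A1 breaks the hormone down and is itself a target of the vitamin D receptor.

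Promoters are shown for 3 members that carry the results below: Slc34a1 and Pdzk1, whose levels did not overlap between the labels, and Slc34a3, the close relative of Slc34a1 whose levels overlapped. The windows run from 250 bases before to 50 bases after a RefSeq start site on GRCm38.p6, and lie at chr13:55399398-55399697 on the plus strand for Slc34a1, chr2:25234185-25234484 on the minus strand for Slc34a3 and chr3:96829815-96830114 on the plus strand for Pdzk1. Each is written 5′ to 3′ along its own gene. Capitals mark the nuclear receptor half-site AGGTCA and the core ACGTG of the hypoxia response element, each searched on both strands, so that TGACCT and CACGT are their reverse complements.

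Slc34a1: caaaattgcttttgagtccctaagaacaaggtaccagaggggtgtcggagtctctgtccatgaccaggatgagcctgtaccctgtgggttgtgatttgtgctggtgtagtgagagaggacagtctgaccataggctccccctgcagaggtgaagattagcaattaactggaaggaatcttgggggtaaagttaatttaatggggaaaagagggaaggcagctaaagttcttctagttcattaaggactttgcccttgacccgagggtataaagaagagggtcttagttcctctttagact

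Slc34a3: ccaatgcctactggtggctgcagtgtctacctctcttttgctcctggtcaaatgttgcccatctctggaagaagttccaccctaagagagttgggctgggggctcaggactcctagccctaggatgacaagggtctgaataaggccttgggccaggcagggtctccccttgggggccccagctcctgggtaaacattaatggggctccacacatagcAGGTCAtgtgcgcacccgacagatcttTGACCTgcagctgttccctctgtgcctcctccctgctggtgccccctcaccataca

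Pdzk1: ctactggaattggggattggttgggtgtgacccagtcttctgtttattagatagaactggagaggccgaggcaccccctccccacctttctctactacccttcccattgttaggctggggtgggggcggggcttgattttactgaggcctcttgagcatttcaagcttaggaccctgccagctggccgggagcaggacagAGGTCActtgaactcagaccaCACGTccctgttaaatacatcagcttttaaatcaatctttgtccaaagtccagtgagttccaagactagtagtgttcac

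The Slc34a1 window held neither motif. The Slc34a3 window held 2 AGGTCA matches, with their first bases at -33 and -6 from the start site, and the Pdzk1 window held AGGTCA at -50 and ACGTG at -29. RefSeq gave windows for 8 of the 10 members, 10 windows in all, since Slc20a1 and Pdzk1 each had a second start site. AGGTCA was also found in both Slc20a1 windows and in the Xpr1 window, and ACGTG in 1 Slc20a1 window, in the Xpr1 window and in the second Pdzk1 window. In the first Slc20a1 window the AGGTCA match overlapped an ACGTG match. No window of Kl, Cyp27b1 or Vdr held either. AGGTCA was present in 16.3% and ACGTG in 19.6% of the 32851 promoter windows of the same length. A DR3 element, the pair of direct repeats 3 bases apart to which the vitamin D receptor binds with its RXR partner, was found in no member window and in 13 of all 32851 windows. Slc20a2 and Cyp24a1 were not in the promoter table.

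The 6 libraries held 11168552 to 17883466 counts. Levels are given as CPM, the count scaled to library size with TMM factors. The smallest detectable signal was taken as 3 counts, which corresponded to 0.168 to 0.269 CPM before TMM scaling. Every member had more than 3 counts in every library. The Setd2 level was 71.3, 73.8 and 12.3 CPM in VHL-KO-labelled libraries against 79.5, 57.3 and 89.5 CPM in VHL-KO;SETD2-KO-labelled ones. The groups overlapped, with VHL-KO replicate 4 the lowest library, and the log2 fold change was 0.52 (unadjusted p = 0.438), so the targeted gene was not lower where the label says so, and directions are given for the libraries as labelled. The study reported lower SETD2 in the renal tubules of these lines from Western blot and RT-qPCR, which was not analysed here. Its RT-qPCR compared VHL-KO with VHL-KO;SETD2-KO mice, and its blot compared wild-type with VHL-KO;SETD2-KO mice. Whether the counted reads lay outside the deleted exons was not tested. The library labelled VHL-KO replicate 4 stood apart: its Spearman correlation with the other 5 was 0.717 to 0.765, against 0.937 to 0.987 among those 5, and mitochondrial genes took 11.3% of its counts against 25.9% to 36.4%. Results were therefore also computed without it. Xist, which is transcribed from the inactive X chromosome, reached 11704 counts in VHL-KO;SETD2-KO replicate 3 and 0 to 4 in each of the others. Sex was not a factor in the comparison, and its part in results that rest on that library was not tested. No marker on 8 lists of kidney cell markers was at 0 in any library, podocyte and endothelial ones included. The summed level of 10 proximal tubule markers was 9198 to 13960 CPM in VHL-KO-labelled libraries and 4391 to 6632 CPM in VHL-KO;SETD2-KO-labelled libraries.

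Of the phosphate and vitamin D genes, Slc34a1 and Cyp24a1 were called lower in VHL-KO;SETD2-KO-labelled libraries without adjustment, and Slc34a1 showed the largest fold over all 6 libraries. The fitted log2 fold change was below 0 in 9 of 10 members, of which Xpr1 and Cyp27b1 changed sign in some of the alternatives, as did Slc20a1, the member above 0. The median log2 fold change of the 10 members was -0.79 against 0.01 over all tested genes, of which 49.6% were below 0. A gene was called at an unadjusted p under 0.05 in edgeR's quasi-likelihood test and a fold change of at least 1.5. These 2 of 10 members met both thresholds, while 4.68% of all tested genes were called lower and 2.66% higher. None of the members was called higher. After Benjamini-Hochberg adjustment over all 14611 genes no member was called in edgeR, and the smallest adjusted p among the members was 0.625. With all libraries limma-voom called no member with adjustment either. DESeq2 called none, but gave an adjusted p only to Slc34a1 (0.0575), Pdzk1 (0.188) and Vdr (0.545). Its filter left the other members, Cyp24a1 (unadjusted p = 0.0143 in DESeq2) among them, without an adjusted p. Limma-voom with sample quality weights called 4 lower, beside 8.25% of all tested genes in that fit. In edgeR with adjustment, 0.00684% of the tested genes, 1 gene, were called lower. The levels in VHL-KO;SETD2-KO-labelled libraries lay wholly below those in VHL-KO-labelled libraries in 3 of 10 members, Slc34a1, Slc20a2 and Pdzk1, as they did in 11% of the tested genes, and wholly above in none of the members and 9.62% of the tested genes. Without the library labelled VHL-KO replicate 4, Slc34a1, Xpr1, Pdzk1 and Kl were called lower, 4 of 10 members, beside 7.15% of 15000 tested genes called lower and 8.29% called higher. With adjustment none of the members was called by edgeR without that library (0.00667% of the tested genes, 1 gene, were called lower), and DESeq2 called 2 members lower, Slc34a1 and Xpr1, beside 4.69% of the tested genes. The levels of Slc34a1, Slc20a2, Xpr1 and Pdzk1 did not overlap without that library, as 21.5% of the genes lay wholly below.

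**Figure D1:**
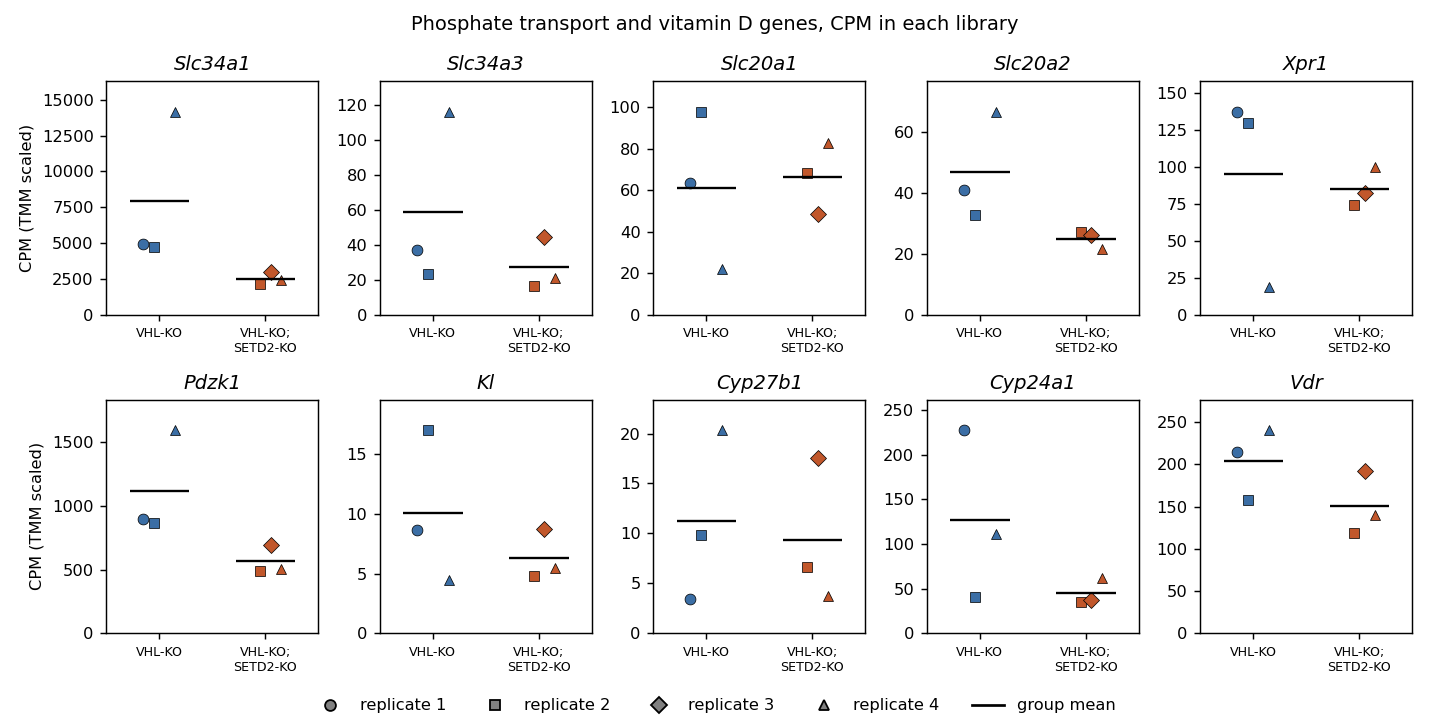
TMM-scaled CPM of the 10 genes on a linear axis from 0 in each library, with the libraries labelled VHL-KO in blue and those labelled VHL-KO;SETD2-KO in orange, marker shapes for the replicate number and a line at the group mean. Slc34a1, Slc20a2 and Pdzk1 do not overlap between the labels, and VHL-KO replicate 4 is the highest or lowest of its group in 9 of the 10 panels, Cyp24a1 being the exception.

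Slc34a1 encodes NaPi-IIa, the main phosphate carrier of the proximal tubule brush border, and lies on GRCm38 at chr13:55398187-55415592 on the plus strand. It ranked 9th of all genes by summed counts and between 6th and 14th within single libraries, and Pfn3, which shares 545 exon bases with it on the opposite strand, held 6 counts over all libraries. Its level was 4970, 4750 and 14180 CPM in VHL-KO-labelled libraries and 2185, 2962 and 2439 CPM in VHL-KO;SETD2-KO-labelled libraries, here and below in the order of replicates 1, 2 and 4 and of replicates 2, 3 and 4. The groups did not overlap, and VHL-KO replicate 4 was the highest library by a wide margin. The mean was 7967 ± 5382 CPM (SD, n = 3) in VHL-KO-labelled libraries, 3.15-fold above the 2529 ± 396.2 CPM (SD, n = 3) in VHL-KO;SETD2-KO-labelled libraries. The log2 fold change was -1.66 (SE 0.59, 95% interval -3.02 to -0.29), with an unadjusted p of 0.0233 and an adjusted p of 0.625. Without VHL-KO replicate 4 the log2 fold change shrank to -0.95 (SE 0.25) and its unadjusted p was 0.0087, with an adjusted p of 0.138 in edgeR and 0.000222 in DESeq2. The call was lost without VHL-KO;SETD2-KO replicate 2 (unadjusted p = 0.086) or without VHL-KO;SETD2-KO replicate 4 (unadjusted p = 0.0779), with log2 fold changes of -1.54 and -1.60.

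Slc34a3 encodes NaPi-IIc, the second brush border carrier of the same family, which in humans is mutated in a hereditary form of rickets with high urinary calcium (chr2:25228898-25234364, minus strand). Its level was 36.8, 23.4 and 116 CPM in VHL-KO-labelled libraries and 16.65, 44.2 and 20.9 CPM in VHL-KO;SETD2-KO-labelled libraries. The groups overlapped, with VHL-KO;SETD2-KO replicate 3 above both VHL-KO replicates 1 and 2. Its log2 fold change was -1.11 (SE 0.68, unadjusted p = 0.141), and -0.15 (SE 0.44) without VHL-KO replicate 4. The ratio of Slc34a1 to Slc34a3 counts was 122.2 to 203.3 in VHL-KO-labelled libraries and 67.03 to 131.2 in VHL-KO;SETD2-KO-labelled libraries, so these ranges overlapped.

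Slc20a1 and Slc20a2 encode PiT-1 and PiT-2, sodium-phosphate carriers found in many tissues, PiT-2 also sitting in the proximal tubule brush border (chr2:129198764-129211616 and chr8:22476788-22569612, both on the plus strand). Slc20a2 measured 41.1, 32.6 and 66.7 CPM in VHL-KO-labelled libraries and 27.2, 26.2 and 21.5 CPM in VHL-KO;SETD2-KO-labelled libraries. The VHL-KO;SETD2-KO libraries lay below all VHL-KO libraries and close together. For Slc20a2 the log2 fold change was -0.91 (SE 0.41, unadjusted p = 0.059), and without VHL-KO replicate 4 it was -0.57 (SE 0.17, unadjusted p = 0.0174), which is under 1.5-fold. Slc20a2 shares 95 exon bases with Smim19 on the opposite strand. Slc20a1 measured 63.4, 97.8 and 22.0 CPM in VHL-KO-labelled libraries and 68.3, 48.3 and 82.8 CPM in VHL-KO;SETD2-KO-labelled libraries. Its groups overlapped throughout, with VHL-KO replicate 4 the lowest library and VHL-KO replicate 2 the highest. Its log2 fold change of 0.12 (SE 0.56) turned to -0.28 (SE 0.29) without VHL-KO replicate 4. The ratio of Slc20a1 to Slc20a2 counts was 0.331 in VHL-KO replicate 4 and 1.54 to 3.85 in the other 5 libraries.

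Xpr1 encodes the known phosphate exporter of animal cells, and its longest transcript of 7492 bases is the longest among the members (chr1:155275701-155417415, minus strand). Its level was 137.5, 129.8 and 18.7 CPM in VHL-KO-labelled libraries and 74.0, 82.2 and 99.75 CPM in VHL-KO;SETD2-KO-labelled libraries. VHL-KO replicates 1 and 2 were the highest libraries and VHL-KO replicate 4 the lowest, so the group means nearly met. The log2 fold change was -0.16 (SE 0.67, unadjusted p = 0.818) over all libraries. Without VHL-KO replicate 4 it was -0.65 (SE 0.17, unadjusted p = 0.00826), the groups no longer overlapped, and the adjusted p was 0.136 in edgeR and 0.024 in DESeq2.

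Pdzk1 encodes a scaffold with several PDZ domains that binds the tail of NaPi-IIa under the brush border (chr3:96829284-96870926, plus strand). Its level was 898, 863 and 1597 CPM in VHL-KO-labelled libraries and 493, 697 and 504 CPM in VHL-KO;SETD2-KO-labelled libraries. All VHL-KO;SETD2-KO libraries lay below all VHL-KO libraries, as for Slc34a1. The mean was 1119 ± 413.9 CPM (SD, n = 3) against 564 ± 114.6 CPM (SD, n = 3), and the log2 fold change was -0.99 (SE 0.46, unadjusted p = 0.0644). Without VHL-KO replicate 4 the log2 fold change was -0.65 (SE 0.22, unadjusted p = 0.0273), with an adjusted p of 0.197 in edgeR and 0.0532 in DESeq2. The ratio of Slc34a1 to Pdzk1 counts was 5.53, 5.51 and 8.88 in VHL-KO-labelled libraries and 4.43, 4.25 and 4.84 in VHL-KO;SETD2-KO-labelled libraries, with no overlap. The share of all genes whose ratio to Pdzk1 likewise did not overlap was not computed. Pdzk1 shares 1333 exon bases with Gpr89 on the other strand, where Gpr89 held 2108 counts over all libraries. How the strand was used in counting is not given in the sources used here, so reads of the 2 genes may not be told apart.

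**Figure D2:**
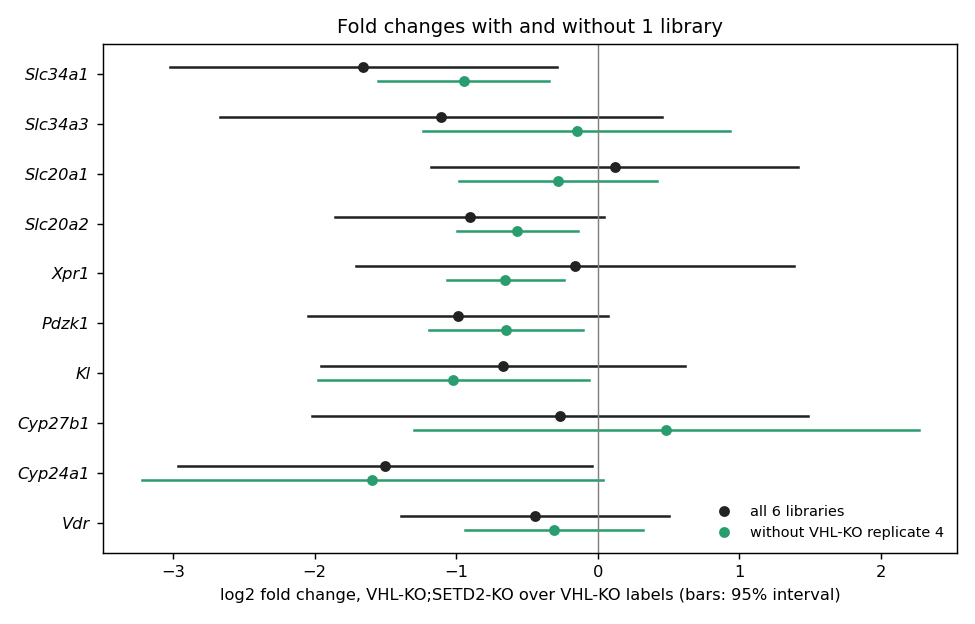
Log2 fold change of the 10 genes, VHL-KO;SETD2-KO relative to VHL-KO, with 95% intervals derived from the edgeR test. Values over all 6 libraries are in black and those without VHL-KO replicate 4 in green. Slc34a1 moves from -1.66 to -0.95 and its interval stays below 0, Xpr1 moves from -0.16 to -0.65, and Slc20a1 and Cyp27b1 change sign.

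Kl encodes klotho, which turns FGF receptors into receptors for FGF23 and is most abundant in the distal tubule (chr5:150952607-150993817, plus strand). It was the lowest of the members on average, at 8.65, 16.99 and 4.48 CPM in VHL-KO-labelled libraries and 4.77, 8.71 and 5.45 CPM in VHL-KO;SETD2-KO-labelled libraries. The groups overlapped, with VHL-KO replicate 2 the highest library and VHL-KO replicate 4 the lowest. Its log2 fold change was -0.67 (SE 0.56, unadjusted p = 0.266). Without VHL-KO replicate 4 it was -1.02 (SE 0.39, unadjusted p = 0.0401, adjusted p = 0.226), and the levels still overlapped. In that fit VHL-KO replicate 1 lay within the range of the VHL-KO;SETD2-KO libraries. With VHL-KO replicate 2 left out instead, the log2 fold change of Kl was -0.06 (unadjusted p = 0.927).

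Cyp27b1 encodes the 1-alpha-hydroxylase that makes active vitamin D (chr10:127048250-127053006, plus strand). Its level was 3.45, 9.88 and 20.4 CPM in VHL-KO-labelled libraries and 6.63, 17.5 and 3.76 CPM in VHL-KO;SETD2-KO-labelled libraries. The groups spanned nearly the same range, VHL-KO replicate 4 and VHL-KO;SETD2-KO replicate 3 being high. The log2 fold change was -0.27 (SE 0.76, unadjusted p = 0.735), and 0.48 (SE 0.73) without VHL-KO replicate 4. Cyp24a1 encodes the 24-hydroxylase that inactivates the hormone (chr2:170482708-170497145, minus strand). It measured 227.7, 40.6 and 111.5 CPM in VHL-KO-labelled libraries and 35.1, 37.2 and 61.6 CPM in VHL-KO;SETD2-KO-labelled libraries. VHL-KO replicates 1 and 4 lay above all VHL-KO;SETD2-KO libraries, while VHL-KO replicate 2 lay among them. Its log2 fold change was -1.50 (SE 0.64, 95% interval -2.965 to -0.043), with an unadjusted p of 0.0449 and an adjusted p of 0.625. The call of Cyp24a1 was lost in 5 of the 6 fits that left out 1 library. Without VHL-KO replicate 1, the highest library, the log2 fold change was -0.75 (unadjusted p = 0.244), and without VHL-KO replicate 4 it was -1.59 (unadjusted p = 0.054). It was -1.35 (unadjusted p = 0.137) without VHL-KO;SETD2-KO replicate 2, -1.38 (unadjusted p = 0.131) without replicate 3 and -1.80 (unadjusted p = 0.0577) without replicate 4 of that label. The ratio of Cyp24a1 to Cyp27b1 counts was 66.02 in VHL-KO replicate 1 and 2.12 to 16.4 in the other 5 libraries. Cyp24a1 shares 83 exon bases with Pfdn4 on the opposite strand.

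Vdr encodes the nuclear receptor through which active vitamin D acts (chr15:97854425-97910630, minus strand). Its level was 215, 158 and 241 CPM in VHL-KO-labelled libraries and 119, 192 and 140.2 CPM in VHL-KO;SETD2-KO-labelled libraries. The groups overlapped, since VHL-KO;SETD2-KO replicate 3 exceeded VHL-KO replicate 2. The log2 fold change was -0.44 (SE 0.41, unadjusted p = 0.314), and -0.31 (SE 0.26, unadjusted p = 0.27) without VHL-KO replicate 4. Vdr was called in neither fit.

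Per kilobase of the longest annotated transcript, the members spanned a wide range of levels. The mean over the 6 libraries was 1318 CPM per kilobase for Slc34a1 and 310.5 for Pdzk1, followed by Vdr at 40.6, Cyp24a1 at 24.1, Slc34a3 at 19.7 and Slc20a1 at 19.2 CPM per kilobase. Xpr1 had 12.1, Slc20a2 10.1, Cyp27b1 4.20 and Kl 1.403 CPM per kilobase. The lowest library for Pdzk1, at 182 CPM per kilobase, was above the highest for Vdr, at 55.1. From Vdr downward each neighbouring pair overlapped between libraries, and Xpr1 and Slc20a2 changed places when merged exons were used as the length. The Slc34a1 and Pdzk1 ranges also met, from 548.5 CPM per kilobase in the lowest library for Slc34a1 to 589 in the highest for Pdzk1, although Slc34a1 was above Pdzk1 within every library.

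The library labelled VHL-KO replicate 4 differed from the other VHL-KO libraries in opposite directions for different members. Its level was 3.86 times the mean of replicates 1 and 2 for Slc34a3, 3.05 times for Cyp27b1 and 2.92 times for Slc34a1. It was 1.81 times that mean for both Pdzk1 and Slc20a2, and 1.29 times for Vdr. It was 0.14 times that mean for Xpr1, 0.273 times for Slc20a1, 0.35 times for Kl and 0.831 times for Cyp24a1. Over the 13811 tested genes with an annotated length this ratio moved with transcript length, with a median log2 ratio of 1.10 for transcripts under 2 kb, 0.26 from 2 to 4 kb, -0.75 from 4 to 6 kb and -1.57 over 6 kb. With transcript length and GC content corrected for, an alternative chosen after the data had been seen, 4 members were called lower at the unadjusted threshold, Slc34a1, Slc20a2, Pdzk1 and Cyp24a1, beside 8.93% of the 13811 genes of that fit.

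**Figure D3:**
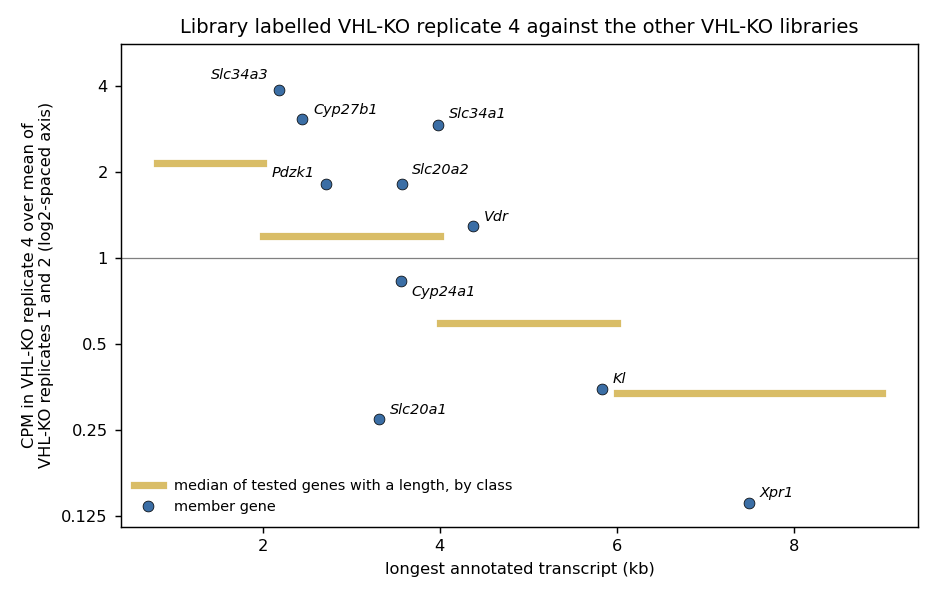
CPM in the library labelled VHL-KO replicate 4 divided by the mean of VHL-KO replicates 1 and 2, on a log2-spaced axis, against the longest annotated transcript in kilobases, for the 10 genes (points) and as medians of the tested genes with an annotated length in 4 classes (bars, the first and last classes being open-ended). Slc34a3 lies highest at 3.86 and Xpr1, with the longest transcript, lowest at 0.14.

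The summed level of the proximal tubule markers was lower in VHL-KO;SETD2-KO-labelled libraries, as was the level of Slc34a1. This sum did not overlap between the labels. The lowest VHL-KO library stood at 9198 CPM against 6632 CPM in the highest VHL-KO;SETD2-KO library. Log2 fold changes were below 0 in 8 of the 10 markers and above 0 in Slc5a12 (0.50) and Gatm (0.38). In VHL-KO replicate 4, the highest library for Slc34a1, the markers Lrp2, Cubn, Slc5a12 and Gatm were below the other VHL-KO libraries. In such bulk libraries, fewer cells of a type and less RNA per cell cannot be told apart. Podocyte markers summed to 1435 to 2085 CPM in VHL-KO-labelled libraries and 1967 to 4828 CPM in VHL-KO;SETD2-KO-labelled libraries, and endothelial markers to 827 to 1679 CPM and 1215 to 3989 CPM, with 5 of 5 markers above 0 on the log2 scale in both lists. Immune markers summed to 137 to 591 and 114 to 320.4 CPM, stromal markers to 72.4 to 378 and 78.7 to 191 CPM, tubular injury markers to 7.503 to 33.8 and 6.76 to 12.5 CPM, and collecting duct markers to 10.3 to 308 and 47.15 to 158.3 CPM. All lists but that of the proximal tubule overlapped between the labels. The part of cell composition in the member results was not tested.

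Set against the counts of 9 proximal tubule markers other than Lrp2, a scale chosen after the data had been seen, the members fell into different patterns. Positions on this scale depend on the markers chosen, and a scale that includes Lrp2 was not computed. Lrp2 measured 3378, 3344 and 938 CPM in VHL-KO-labelled libraries and 1165, 1678 and 1731 CPM in VHL-KO;SETD2-KO-labelled libraries. Slc34a1 stood at 7776, 8115 and 10890 counts per 10000 marker counts in VHL-KO-labelled libraries and at 6771, 5979 and 6494 in VHL-KO;SETD2-KO-labelled libraries, still without overlap. Pdzk1 stood at 1405, 1474 and 1226 in VHL-KO-labelled libraries and 1528, 1406 and 1341 in VHL-KO;SETD2-KO-labelled libraries, where the groups overlapped. Slc20a2 overlapped as well, at 51.2 to 64.3 and 52.9 to 84.2 per 10000 marker counts. Vdr was 336, 269 and 185 in VHL-KO-labelled libraries and 368, 388 and 373 in VHL-KO;SETD2-KO-labelled libraries, so on this scale its VHL-KO;SETD2-KO libraries were the higher ones without overlap. The other 6 members overlapped between the labels on this scale. Of all tested genes 46.5% lay wholly above and 0.903% wholly below in VHL-KO;SETD2-KO-labelled libraries on this scale, so that the position of Vdr was a common one.

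**Figure D4:**
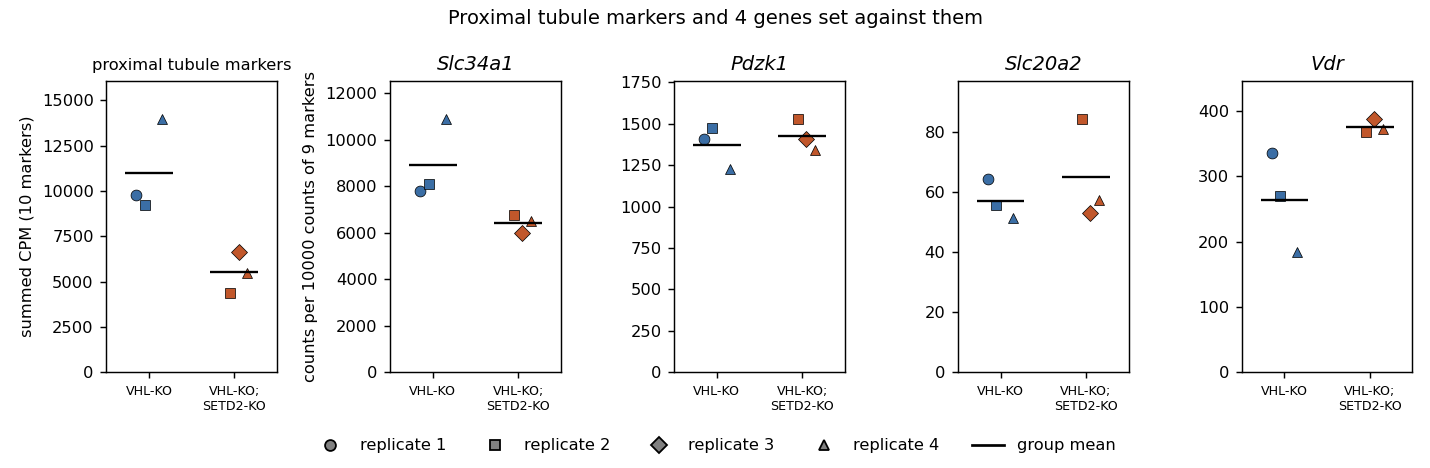
Summed CPM of 10 proximal tubule markers (first panel) and counts of Slc34a1, Pdzk1, Slc20a2 and Vdr per 10000 counts of 9 of these markers in each library, on linear axes from 0 with a line at the group mean. Slc34a1 is lower in VHL-KO;SETD2-KO-labelled libraries without overlap, Pdzk1 and Slc20a2 overlap, and Vdr is higher.

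Other genes of the pathway were taken from 5 lists of 39 tested genes, written with earlier results of these data known. At the unadjusted threshold 11 were called, 6 higher and 5 lower beside 2.66% and 4.68% of all tested genes. None was called after adjustment, each called gene having an adjusted p of 0.625 in edgeR. The list of apical scaffold proteins held 5 genes, Slc9a3r1, Slc9a3r2, Pdzk1ip1, Ezr and Gabarap, not all of them scaffolds themselves. Of these 1 was called lower, Slc9a3r1, which encodes NHERF1, the partner of NaPi-IIa and of the parathyroid hormone receptor. It measured 196, 192 and 854 CPM in VHL-KO-labelled libraries and 117, 132 and 123 CPM in VHL-KO;SETD2-KO-labelled libraries, a log2 fold change of -1.74 (SE 0.66, unadjusted p = 0.0288) that became -0.65 without VHL-KO replicate 4. The call of Slc9a3r1 was lost without VHL-KO;SETD2-KO replicate 2 (-1.67), 3 (-1.77) or 4 (-1.70). The median of the scaffold list was -0.88 over all libraries and 0.05 without VHL-KO replicate 4, in both cases the value of Gabarap.

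Of 14 genes of FGF23 and parathyroid hormone signalling 11 were tested, with a median log2 fold change of -0.06. Called were 2 higher and 1 lower, beside 2.66% and 4.68% of all tested genes. The FGF23 receptor gene Fgfr1 measured 57.1 CPM in VHL-KO-labelled libraries and 54.6 CPM in VHL-KO;SETD2-KO-labelled libraries on average. Pth1r, the receptor of parathyroid hormone, measured 335, 329 and 1720 CPM against 268, 321 and 240 CPM, with a log2 fold change of -1.52 (unadjusted p = 0.0642), and was highest in VHL-KO replicate 4, without which it was -0.27 (unadjusted p = 0.196). Fgfr4 was lower in VHL-KO;SETD2-KO-labelled libraries at 19.1, 23.6 and 26.6 CPM against 39.3, 44.8 and 95.3 CPM (log2 fold change -1.37, SE 0.47, unadjusted p = 0.0182). Fgfr2 was higher at 24.1, 19.9 and 15.7 CPM against 8.59, 10.5 and 5.601 CPM (log2 fold change 1.27, SE 0.42, unadjusted p = 0.0152). Both FGF receptors were without overlap between the labels, in opposite directions, as 11% of all tested genes lay wholly below and 9.62% wholly above. On leaving out VHL-KO;SETD2-KO replicate 2 the calls of Fgfr4 (-1.23) and Fgfr2 (1.12) were lost, as was that of Fgfr4 (-1.37) without VHL-KO;SETD2-KO replicate 3. Casr, the calcium-sensing receptor of the thick limb, was also higher, at 17.6 and 39.6 CPM on average (log2 fold change 1.17, unadjusted p = 0.0349), and lost its call without VHL-KO replicate 1 (1.07), VHL-KO;SETD2-KO replicate 3 (0.77) or VHL-KO;SETD2-KO replicate 4 (1.28). Fgf23 and Klb had 0 counts in every library, which allows up to 0.269 CPM before TMM scaling in the shallowest one.

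Vitamin D reaches the tubule cell bound to its plasma carrier, which megalin (Lrp2), cubilin and amnionless (Amn) take up. Of 11 genes on this list 9 were tested, with 1 called higher and 1 lower beside 2.66% and 4.68% of all tested genes. The median log2 fold change was -0.74, and Lrp2 and cubilin (Cubn) are also among the proximal tubule markers. Amn measured 66.7, 61.8 and 527 CPM in VHL-KO-labelled libraries and 33.5, 66.9 and 42.1 CPM in VHL-KO;SETD2-KO-labelled libraries. Its log2 fold change of -2.20 (SE 0.88, unadjusted p = 0.0358) rested on VHL-KO replicate 4, without which it was -0.44 (unadjusted p = 0.184). Lrp2 went the other way with that library, at 3378, 3344 and 938 CPM against 1165, 1678 and 1731 CPM, so that its log2 fold change of -0.74 (unadjusted p = 0.238) became -1.14 (unadjusted p = 0.00438) without it. Gc, the carrier itself, measured 14.5, 7.85 and 13.5 CPM against 12.4, 172 and 20.5 CPM. Its log2 fold change of 2.52 (unadjusted p = 0.0307) came down to 0.47 (unadjusted p = 0.385) without VHL-KO;SETD2-KO replicate 3. The calls of both were also lost in other fits that left out 1 library, that of Amn without VHL-KO;SETD2-KO replicate 2 (-1.97), 3 (-2.51) or 4 (-2.08) and that of Gc without VHL-KO replicate 1 (2.69), 2 (2.30) or 4 (2.61). Rxra, the partner of the vitamin D receptor, measured 187 CPM in VHL-KO-labelled libraries and 89.5 CPM in VHL-KO;SETD2-KO-labelled libraries on average (log2 fold change -1.07, unadjusted p = 0.0655). VHL-KO replicate 4 was its highest library, and without it the log2 fold change was -0.44.

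The calcium transport genes of the distal tubule, several of them vitamin D targets, included 3 of 6 called higher in VHL-KO;SETD2-KO-labelled libraries, beside 2.66% of all tested genes. The list had a median log2 fold change of 1.44, with fitted values of 6 of 6 above 0. Trpv5, the apical calcium channel, measured 2.54, 8.22 and 4.39 CPM in VHL-KO-labelled libraries and 13.4, 48.9 and 17.3 CPM in VHL-KO;SETD2-KO-labelled libraries (log2 fold change 2.40, SE 0.67, unadjusted p = 0.0068), and stayed called on leaving out each library in turn, with a log2 fold change of 1.62 without VHL-KO;SETD2-KO replicate 3. Calb1, the cytosolic calcium buffer calbindin, measured 82.5, 114 and 42.4 CPM against 154, 564 and 156 CPM (log2 fold change 1.87, unadjusted p = 0.0226). Slc8a1, the sodium-calcium exchanger, measured 39.5, 54.0 and 29.6 CPM against 85.1, 357 and 78.5 CPM (log2 fold change 2.08, unadjusted p = 0.0149). None of the 3 overlapped between the labels, and 9.62% of all tested genes likewise lay wholly above. The highest library for each was VHL-KO;SETD2-KO replicate 3. Without that library Calb1 and Slc8a1 were no longer called, with log2 fold changes of 0.96 and 1.001. Calb1 also lost its call without VHL-KO replicate 1 (1.90) or VHL-KO replicate 4 (1.56). The summed thick limb and distal tubule markers, which include Calb1, were 4353 CPM in VHL-KO;SETD2-KO replicate 3, 4809 CPM in VHL-KO replicate 4 and 1256 to 1963 CPM in the other 4, and their part in these results was not tested.

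Among 8 tested genes of other phosphate and pyrophosphate handling 2 were called lower, Slc17a1 and Slc17a3, beside 4.68% of all tested genes. These are neighbours of one family first described as sodium-phosphate transporters and known to carry organic anions such as urate. Slc17a1 measured 503, 467 and 533 CPM in VHL-KO-labelled libraries and 213, 210 and 222 CPM in VHL-KO;SETD2-KO-labelled libraries (log2 fold change -1.22, SE 0.38, unadjusted p = 0.0128). Slc17a3 measured 757, 636 and 609 CPM against 284, 175 and 314 CPM (log2 fold change -1.37, SE 0.43, unadjusted p = 0.0129). In both genes VHL-KO replicate 4 lay near the other VHL-KO libraries, unlike in Slc34a1. Without it Slc17a1 kept a log2 fold change of -1.18 (unadjusted p = 0.000239, adjusted p = 0.0776). The call of Slc17a1 was lost without VHL-KO;SETD2-KO replicate 2 (-1.20) or 4 (-1.23), and that of Slc17a3 in none of the 6 fits with a library left out.

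**Figure D5:**
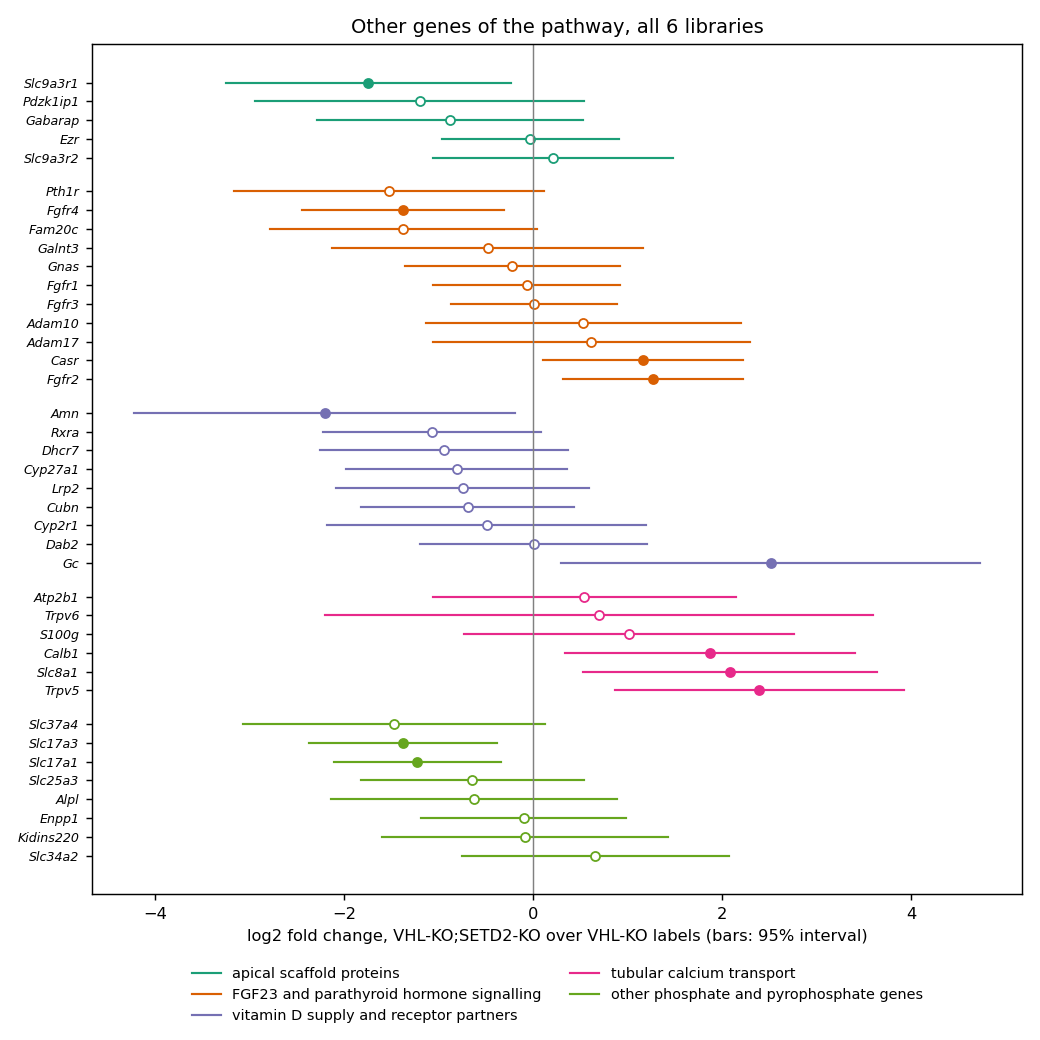
Log2 fold change, VHL-KO;SETD2-KO relative to VHL-KO, of the tested pathway genes by list over all 6 libraries, with 95% intervals derived from the edgeR test. Filled points mark genes called at an unadjusted p under 0.05 and at least 1.5-fold. The calcium transport genes all lie above 0, with Trpv5 at 2.40, while Slc17a1 and Slc17a3 lie at -1.22 and -1.37.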

How the data were processed

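PTEC RNA was extracted with TRIzol, and directional libraries were sequenced with paired ends. The submitters' processing notes name HISAT2 2.0.4 and GRCm38. The counting program, annotation and strand setting are not given in the sources used here. The authors deposited raw counts per gene for 6 libraries (11168552 to 17883466 counts). Groups and replicate numbers came from the sample labels. Floors of 3 counts cover counting error only.

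From the deposited counts, TMM factors and the quasi-likelihood test of edgeR 4.0.16 (R 4.3.3) were computed on the genes that passed filterByExpr, with the label as the single factor and a prior count of 2 for log2 CPM, and p-values were adjusted by Benjamini-Hochberg over all tested genes. Genes were called at p under 0.05 and at least 1.5-fold, thresholds of the study. The SE was derived as the size of the log2 fold change over the square root of the F statistic of that test. From it the 95% interval was formed with the t distribution. Alternatives were DESeq2 1.42.0, limma 3.58.1 (voom, with and without quality weights), other scalings and filters, each library left out, and the replicate number as a block. The test was run on simulated counts in which no library stood apart, so that check does not cover a library like VHL-KO replicate 4.

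The members and gene lists were chosen with earlier results of these data known. Named beside the 10 members were pathway genes with an unadjusted p under 0.05, up to 4 per list, and Fgfr1, Pth1r, Slc9a3r1, Lrp2 and Rxra. Xist, Fgf23, Klb and the overlapping genes were picked with their values in view. Gene positions and lengths are from the GENCODE annotation of GRCm38, and promoters from RefSeq. Ratios by transcript length used CPM plus 0.1.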

Additional observations from a re-analysis of the deposited data

How the results depend on the processing

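Of the members, Slc34a1, Slc34a3, Slc20a2, Pdzk1, Kl, Cyp24a1 and Vdr kept a log2 fold change below 0 in all 17 alternatives. Members called lower without adjustment (2 over all libraries) numbered 1 with limma-voom, 1 with at least 10 counts in every library, 1 with library sizes without mitochondrial genes and 1 without the 20 highest genes, 4 with sample quality weights, 3 with DESeq2, 5 with DESeq2 without VHL-KO replicate 4, 4 with the length and GC offset and 0 to 4 with 1 library left out. With adjustment (0) they numbered 4 with quality weights and 2 with DESeq2 without VHL-KO replicate 4. Pathway genes called higher (6) numbered 3 with the length and GC offset, 9 with quality weights and 2 to 8 with 1 library left out, and those called lower (5) numbered 8 with DESeq2, 3 with limma-voom, 12 with quality weights, 8 with no filter, 10 with the length and GC offset, 7 with DESeq2 without VHL-KO replicate 4 and 1 to 8 with 1 library left out. With adjustment (0 and 0), quality weights called 5 higher and 10 lower, and DESeq2 without VHL-KO replicate 4 called 5 and 7. Of all tested genes, those called higher (388) numbered 2125 with quality weights, 634 with no filter, 1425 with DESeq2 without VHL-KO replicate 4, 800 with the length and GC offset and 179 to 1243 with 1 library left out. Those called lower (684) numbered 1133 with DESeq2, 1527 with quality weights, 1093 with DESeq2 without VHL-KO replicate 4, 1233 with the length and GC offset and 206 to 1078 with 1 library left out. With adjustment (0 higher, 1 lower), DESeq2 called 1 and 50, quality weights 1453 and 1205, and DESeq2 without VHL-KO replicate 4 534 and 704, while no filter gave 2 lower, at least 10 counts 0, and leaving out 1 library 0 to 1.

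The log2 fold change changed sign for Slc20a1 (0.12) at -0.079 with quality weights and -0.29 with DESeq2 without VHL-KO replicate 4 (-0.28 to 0.64 with 1 library left out), for Xpr1 (-0.16) at 0.29 with limma-voom (-0.65 to 0.20), for Cyp27b1 (-0.27) at 0.48 with DESeq2 without VHL-KO replicate 4 and 0.21 with the length and GC offset (-1.09 to 0.48), and for Fgfr1 (-0.06) at 0.027 with limma-voom, 0.39 with quality weights, 0.012 with no filter, 0.36 with DESeq2 without VHL-KO replicate 4 and 0.0895 with the offset (-0.27 to 0.37). The median of all tested genes, 0.01, was 0.13 with limma-voom and 0.11 with the replicate block. The cause of these changes was not tested.

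Replicate numbers 2 and 4 occur under both labels, and nothing in the labels says that they pair mice. The deviations of same-numbered libraries from their group means correlated at 0.165 for replicate 2 and -0.319 for replicate 4, which includes the library that stands apart, so a pairing was not shown and a shared batch was not tested further. With the replicate block, 0 members, 0 pathway genes higher and 0 lower, and 93 higher and 54 lower of all tested genes were called, the log2 fold change of Slc34a1 was -1.83 (unadjusted p = 0.128), that of Cyp24a1 -0.53 (unadjusted p = 0.654) and that of Xpr1 0.80. Cyp24a1 also lost its call with limma-voom, quality weights, the minimum of 10 counts and both other library sizes. Depth limited no member, the lowest count being 48.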
